A study of Mus musculus with 6 samples.

Results

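The genes of collagens, laminins and integrins and a few of their matrix partners were examined in RNA of isolated mouse collecting duct cells. The set was defined by symbol and holds every gene named Col with a number and a chain, Lama, Lamb or Lamc with a number, and Itga or Itgb with a letter or number, together with Nid1, Nid2, Hspg2, Agrn, Npnt and Fn1. It came to 89 genes of the 24911 to which the deposited identifiers were assigned. Itgb1bp1 and Itgb1bp2 were left out by that definition. Itgb3bp was left out as well because it codes for a centromere protein and not an integrin chain.

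Kidneys of male mice of the inbred strain C57BL/6J supplied the cells, and the labels name no altered gene. The mice ate a low-NaCl diet (0.01 to 0.02% sodium) or a high-NaCl diet (2.4% sodium) for 5 days, and 3 libraries were sequenced per diet. Scarce sodium raises aldosterone, the steroid hormone that stimulates sodium uptake in the collecting duct, and the comparison asks which transcripts differ between the diets. The labels give neither the age of the mice nor the way the cells were isolated. They also do not say that libraries of a diet stem from separate animals, and p-values then describe library-to-library spread that may be only technical.

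Tubule epithelium rests on a basement membrane, a thin sheet built from networks of laminin and type IV collagen that are joined by nidogen and the proteoglycans perlecan and agrin. A laminin is a trimer of an alpha, a beta and a gamma chain, and type IV collagen is a trimer drawn from a family of alpha chains. Fibril-forming collagens such as types I, III and V make the interstitial fibres outside the basement membrane and are mainly products of fibroblasts. Integrins are the receptors that bind these proteins to the cell, each a pair of an alpha and a beta subunit. The pair of alpha6 with beta1 or beta4 and the pair of alpha3 with beta1 bind laminin, alpha1 with beta1 binds collagen, alphav pairs bind matrix ligands that carry an RGD sequence, and alpha8 with beta1 binds nephronectin.

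On the low-NaCl diet, the collagen chain gene Col5a2 was higher by 1.81-fold and the laminin receptor gene Itga6 by 1.48-fold. The laminin chain gene Lama1 was lower, its level on the high-NaCl diet being 2.14-fold that on the low-NaCl diet. The main chains of the basement membrane, namely Col4a2, Col4a3, Col4a4, Lama5, Lamb1, Lamb2 and Lamc1, did not pass the test, with log2 fold changes between -0.10 and 0.23. Of the 89 genes, 39 had enough reads to be tested, and 2 of them passed higher, 1 passed lower and 36 did not pass. Over all 10567 genes tested, 1.72% passed higher and 1.74% passed lower at an adjusted p of 0.05.

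How much of each gene could be counted decides what can be said of it. Counts were deposited per transcript identifier, and by the defaults of the counting program a read shared by several identifiers is dropped. Only bases in exons of a single identifier therefore give counts. That countable share ran from 0% to 100% over the set and was under 50% in 49 of the 89 genes. Col4a1, the usual partner of Col4a2, is covered by 2 nearly identical identifiers, had a countable share of 0.256% and gave 3 reads in all. Npnt, which codes for nephronectin, had 0.961% and 9 reads, and its receptor gene Itga8 had 4.84% and 1 read. Itga3 had 8.56% and 9 reads, and Fn1, the gene of fibronectin, had 22.5% and no read. For these genes a low count does not speak of a low level.

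Reads were seen for 75 of the 89 genes and none for 14. Among those 14, Itgam had no countable base, so it could give no read and the bound that follows does not apply to it. At a floor of 3 counts, a total of 0 allows a level of up to 0.0574 to 0.0825 CPM (counts-per-million, scaled between libraries) in a library, which covers counting error only and only the countable bases. The 50 genes that were not tested had means over the 6 libraries of at most 0.531 CPM. The highest of them was Itga11, a collagen receptor subunit with all bases countable, at 5, 37 and 72 reads on the low-NaCl diet and 135 reads in the 6 libraries together. Among the other untested genes with all bases countable were Itga2 with 46 reads, Col8a2 with 46, Col10a1 with 16 and Col9a2 with 11.

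**Figure D1:**
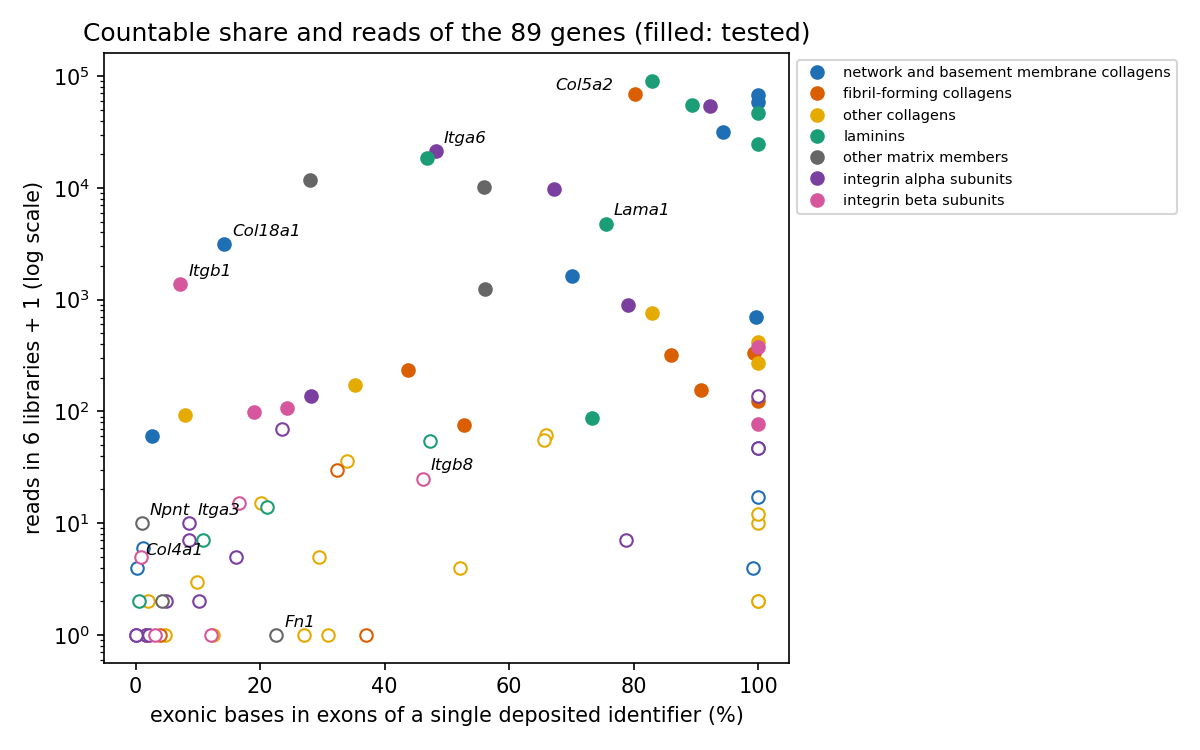
Each point is 1 of the 89 genes, with its countable share of exonic bases in percent on the x axis and its reads over the 6 libraries plus 1 on a log y axis; filled points were tested. Genes such as Col4a1, Npnt and Itga3 sit at a countable share under 10% with fewer than 10 reads, and Itgb1 was tested from a share of 7.11%.

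Libraries held 40101900 to 46861500 counted reads. The set took 0.175% to 0.281% of them. Per the file headers, lane 1 held library 1 of both diets, lane 2 the other low-NaCl libraries and lane 3 the other high-NaCl libraries, so a difference within a lane can be taken from lane 1 alone. Mitochondrial genes made up 16.2% to 16.7% of counts on the low-NaCl diet and 17.7% to 22.8% on the high-NaCl diet. Collecting duct markers were strong and their balance moved with the diet. The summed level of 8 principal cell markers, the water-channel cells of the duct, was 3148 to 4786 CPM on the low-NaCl diet and 8805 to 10962 CPM on the high-NaCl diet, with 3 of 8 called lower. The sum of 7 markers of intercalated cells, which secrete acid or base, was 1826 to 4113 CPM against 1071 to 1190 CPM, with 5 of 7 called higher. Those calls are by edgeR. DESeq2 called 7 of the 8 principal cell markers lower and 7 of the 7 intercalated cell markers higher, and limma-voom called 4 of each. The diets did not overlap in 7 of the 8 and in 7 of the 7. In these bulk RNA samples, fewer cells of a type and less RNA per cell cannot be told apart. The part of these shifts in any result below was not tested.

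Markers of other cells had low counts, and calls given for them are by edgeR. Their countable shares were not weighed here, so a low sum or no read need not mean that the cells were absent. The summed level of 10 markers of fibroblasts, pericytes and smooth muscle was 14.0, 32.0 and 52.5 CPM in low-NaCl libraries 1 to 3. It was 19.9 to 22.9 CPM on the high-NaCl diet, with 0 of the 2 tested markers called. Most of it was Tagln, an actin-binding protein gene, at 8.97, 28.3 and 46.7 CPM against 15.1, 20.1 and 15.4 CPM, while Pdgfrb and Myh11 had no read and Pdgfra had 3 reads, all on the high-NaCl diet. Endothelial markers summed to 0.519 to 3.53 CPM against 3.59 to 4.07 CPM, with Pecam1, Tek and Emcn at no read. Of the 9, 5 were tested and 0 called, where DESeq2 called 1 lower. In 2 of the endothelial markers the diets did not overlap, both lower on the low-NaCl diet. Leukocyte markers summed to 0.159 to 0.684 CPM against 0.358 to 0.860 CPM, with Ptprc and Adgre1 at no read and none of the 8 tested. Podocyte markers summed to 39.3 to 65.5 CPM against 46.3 to 62.3 CPM, with 5 of 6 tested and 0 called. Markers of the papillary surface and urothelium summed to 7.60 to 12.1 CPM against 8.83 to 17.9 CPM, with 0 of 5 called. Proximal tubule markers summed to 14.5, 59.6 and 86.8 CPM in low-NaCl libraries 1 to 3 and to 25.6 to 42.7 CPM on the high-NaCl diet. Hnf4a had no read, and 6 of the 8 were tested and 0 called. Thick limb and distal convoluted tubule markers summed to 95.3 to 108 CPM against 47.3 to 67.5 CPM. Of the 5, 4 were tested and 1 (Slc12a1) was called higher, where DESeq2 called 2.

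Levels of different genes were compared as CPM per kb of countable exon, averaged over the 6 libraries. This measure divides by all countable bases of a gene, also those of identifiers with few reads. In Lamb1, uc007nhd.1 held 99.96% of the reads but 4138 of the 7938 countable bases. In Col5a2, uc007awr.1 held 99.96% of the reads and 5194 of 5743 bases, and in Itga6, uc008kbg.1 held 98.9% and 1562 of 3912. The order of the leading genes therefore holds for this measure only. By it, Col5a2 stood highest at 47.5 CPM per kb, next to Lamb1 at 45.3 CPM per kb. Col4a2 at 36.0, Col4a4 at 34.0 and Lamb2 at 32.8 CPM per kb lay below them. The leading integrin genes were Itgav at 24 and Itga6 at 21.5 CPM per kb, and the leading proteoglycan gene was Agrn at 19.8 CPM per kb. Of these leading matrix genes, Col5a2 was the single fibril-forming chain. Every other fibril-forming chain tested lay at 0.334 CPM per kb (Col11a2) or lower. The values of genes with a small countable share, such as Itgb1 at 18.3 CPM per kb from 7.11% of its bases, rest on few bases.

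**Figure D2:**
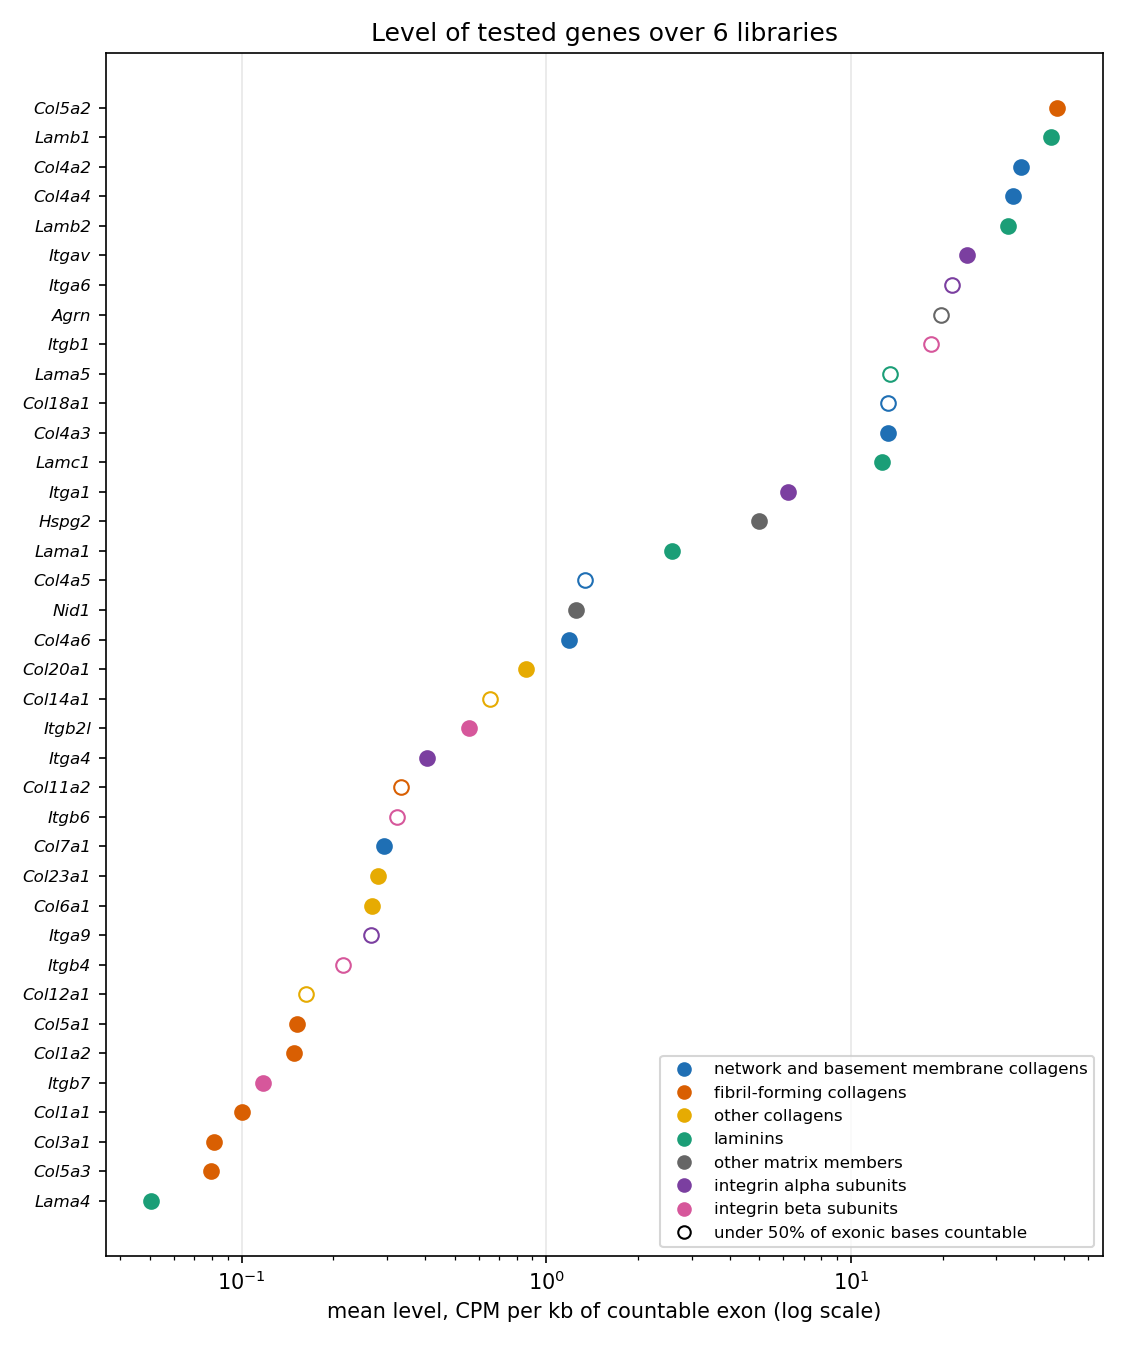
Mean level over 6 libraries of the tested genes reported by name, in CPM per kb of countable exon on a log axis, coloured by class; open symbols have under 50% of exonic bases countable. Col5a2 lies at 47.5 CPM per kb while the other fibril-forming collagens lie at or under 0.334 CPM per kb.

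Over the 39 tested genes the median log2 fold change (low-NaCl minus high-NaCl) was 0.25, with 28 values above 0 and 11 below, and over all genes tested it was -0.00. Among the 16 genes that reached 10 CPM in either group the median was 0.14, and among the 23 below 10 CPM in both it was 0.42. The libraries of the diets did not overlap in 7 genes that were higher and 2 that were lower on the low-NaCl diet, against 12.3% and 11.6% of all genes tested. Without adjustment, 7 of the 39 genes had a p under 0.05, a share close to the 18.3% of all genes tested, and the counts at an unadjusted p given for classes below stand against that share. Low-NaCl library 1 was the lowest of the 6 libraries in 13 of the 39 genes, or 33.3%, against 15.2% of all genes tested. High-NaCl library 3 was the lowest in 10 of the 39, or 25.6%, against 11.3% of all genes tested. Among the 23 genes below 10 CPM, the lowest library was high-NaCl library 3 in 39.1% and low-NaCl library 1 in 21.7%.

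The counts of calls depended on single libraries. Without low-NaCl library 1, 4 genes passed higher, namely Col5a2, Col6a1, Nid1 and Itga11, and Itga6 did not. Without low-NaCl library 2, and likewise without high-NaCl library 3, 0 genes of the set passed in either direction. Without low-NaCl library 3 the higher count was 1, and without high-NaCl library 1 it was 1 with 0 lower. The counts over all genes moved as well. Without low-NaCl library 1, 292 of 10933 genes passed higher and 186 lower. Without low-NaCl library 2 it was 39 and 36 of 10862, and without high-NaCl library 3 it was 34 and 53 of 10909. Without low-NaCl library 3 it was 59 and 76 of 10863, and without high-NaCl library 1 it was 67 and 95 of 10906.

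**Figure D3:**
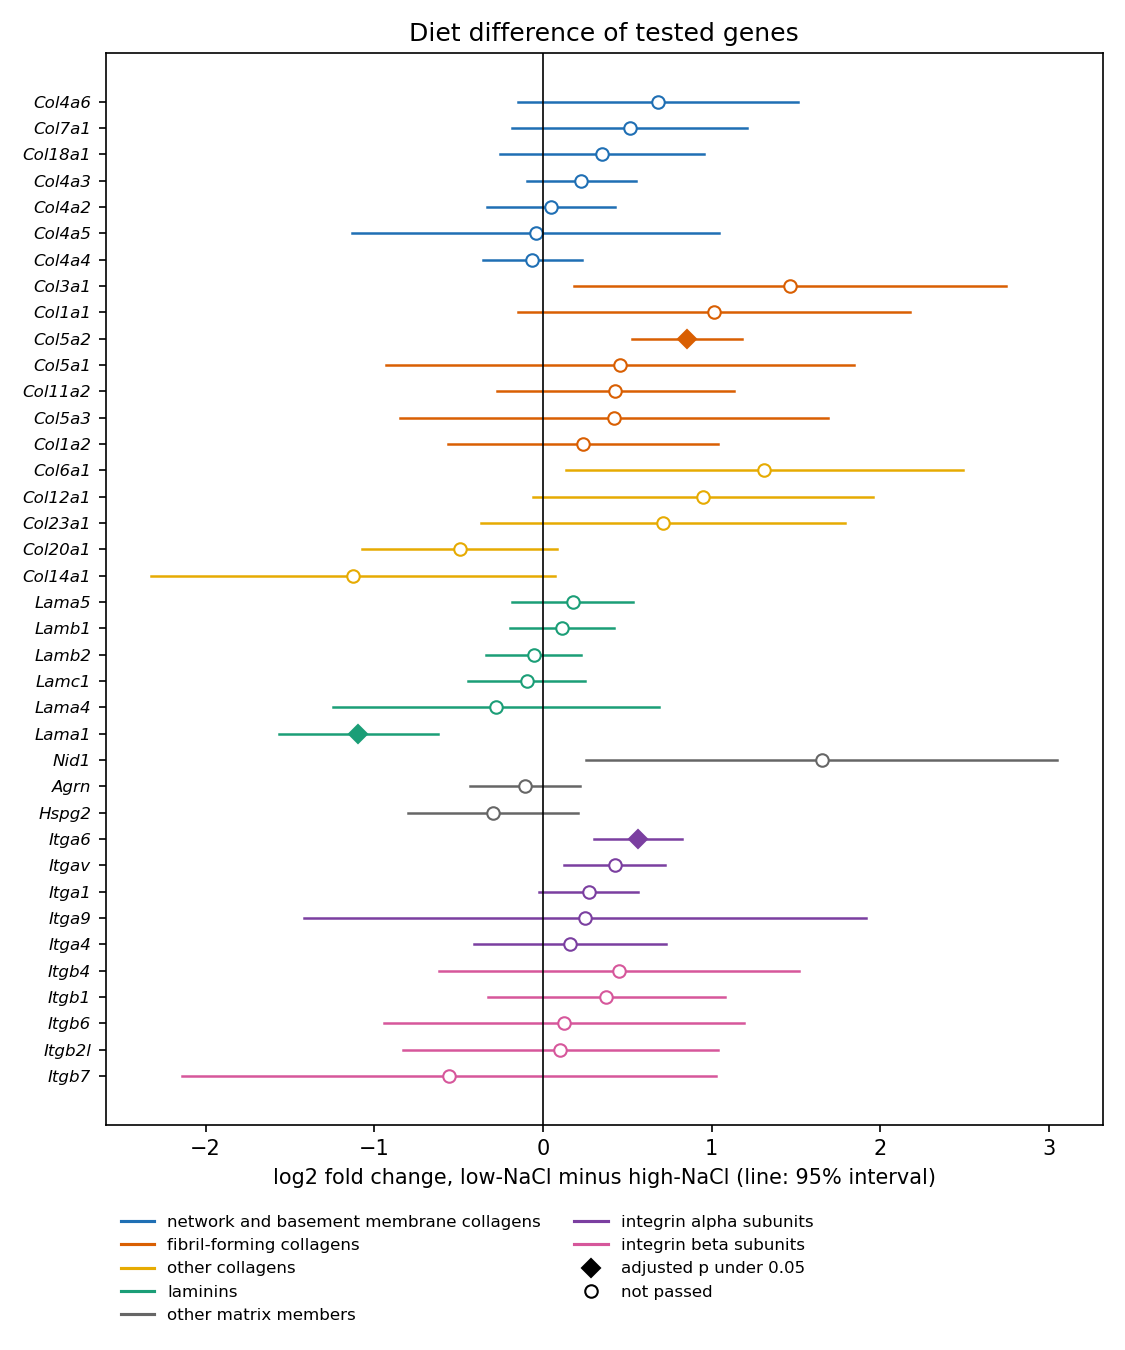
Log2 fold change (low-NaCl minus high-NaCl) of the tested genes reported by name, by class, with its 95% interval; filled diamonds have an adjusted p under 0.05. Col5a2 (0.86) and Itga6 (0.57) lie to the right of 0 and Lama1 (-1.10) to the left, and the intervals of the low genes are wide.

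The fibril-forming class held 11 genes, of which 7 were tested, 1 passed higher and 0 passed lower, with a median log2 fold change of 0.46. Col5a2 codes for the alpha2 chain of type V collagen, a minor fibril component that helps start fibrils of type I collagen. It lies on chromosome 1 (45374321 to 45503282, minus strand, mm10), and 80.2% of its exonic bases were countable. Col5a2 measured 379, 370 and 306 CPM in low-NaCl libraries 1 to 3 and 181, 193 and 209 CPM in high-NaCl libraries 1 to 3. Every low-NaCl library lay above every high-NaCl library. The log2 fold change was 0.86 ± 0.15 (SE), with a 95% interval of 0.53 to 1.18 and an adjusted p of 0.0180 by edgeR, and lane 1 alone gave 1.07. The call was lost without low-NaCl library 2 (adjusted p = 0.0780), without high-NaCl library 3 (0.0732) and with lane as a term (0.220).

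The partners of Col5a2 were scarce in the same RNA. Col5a1, whose chain makes up most of the common type V trimer, was 99.3% countable and measured 0.248, 1.96 and 2.19 CPM on the low-NaCl diet and 1.07, 1.47 and 0.638 CPM on the high-NaCl diet. The groups overlapped, and the mean level was 0.176 ± 0.127 against 0.127 ± 0.050 CPM per kb (SD, n = 3), where Col5a2 had 61.2 ± 6.90 against 33.8 ± 2.40 CPM per kb. Col5a3, the remaining type V chain, had 0.330 ± 0.081 against 0.237 ± 0.176 CPM. Reads from the antisense side cannot be told from Col5a1, because counting ignored strand and 2810430I11Rik and Gm13372 overlap 2.54% of its countable bases.

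The chains of the common interstitial collagens were low, with means under those of Col5a2 by a wide margin. Col1a1, a chain of type I collagen, measured 0.596, 0.706 and 0.613 CPM on the low-NaCl diet and 0.275, 0.535 and 0.106 CPM on the high-NaCl diet. The groups did not overlap, and the log2 fold change of 1.01 ± 0.52 did not pass (adjusted p = 0.344). Col1a2, its partner chain, measured 1.38 ± 0.566 against 1.18 ± 0.284 CPM. Col3a1, the chain of type III collagen and the neighbour of Col5a2 on chromosome 1 (45311538 to 45349706, plus strand), measured 0.348, 1.39 and 0.873 CPM against 0.138, 0.440 and 0.346 CPM, with low-NaCl library 1 inside the high-NaCl range. Its log2 fold change was 1.47 ± 0.57 (adjusted p = 0.209). Beside these values stand the fibroblast markers above, whose summed level was lowest in low-NaCl library 1 and highest in low-NaCl library 3. That sum was mostly Tagln. Among the low-NaCl libraries, Col5a2 had its highest value in library 1 and its lowest in library 3. The part of fibroblast RNA in Col5a2 and in the low collagens was not tested. Col11a2 measured 1.05 ± 0.198 against 0.772 ± 0.145 CPM. Of the untested genes, Col27a1 had 29 reads, and Col2a1, Col11a1 and Col24a1 had none, with countable shares of 32.4%, 3.97%, 37.0% and 1.68%.

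The network and basement membrane collagens held 12 genes, of which 7 were tested and 0 passed in either direction by edgeR, DESeq2 or limma-voom, with 0 at an unadjusted p under 0.05. Their median log2 fold change was 0.23. Col4a2, which joins Col4a1 in the widespread type IV trimer, measured 188, 235 and 283 CPM on the low-NaCl diet and 233, 244 and 206 CPM on the high-NaCl diet, so that the low-NaCl libraries spanned the high-NaCl ones. Its 95% interval of the log2 fold change was -0.33 to 0.43. Gm15419 overlaps 0.669% of the countable bases of Col4a2, and reads there cannot be separated.

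Col4a3 and Col4a4 code for chains of the specialised type IV network of mature tubule and glomerular basement membranes, and they lie head to head on chromosome 1 (82586921 to 82722059, plus strand, and 82448423 to 82586849, minus strand). Col4a3 measured 126, 147 and 129 CPM against 98.0, 116 and 129 CPM. C430014B12Rik overlaps 5.99% of the countable bases of Col4a3, and its reads cannot be separated. Col4a4 measured 248, 262 and 266 CPM against 251, 282 and 279 CPM. The groups overlapped in both, and the log2 fold changes were 0.23 ± 0.15 and -0.06 ± 0.13 with 95% intervals of -0.10 to 0.55 and -0.36 to 0.23. Col4a5, the third chain of that network, was measured from 2.65% of its bases at 0.228 ± 0.047 against 0.234 ± 0.065 CPM.

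Col4a6, a further type IV chain, measured 4.22, 8.31 and 10.6 CPM against 4.81, 6.71 and 2.85 CPM, with overlap. Col18a1, which codes for a collagen that carries the endostatin fragment, measured 8.52, 12.9 and 20.0 CPM against 10.7, 11.5 and 10.4 CPM. The low-NaCl libraries lay on both sides of the tightly grouped high-NaCl libraries. Col7a1, the anchoring fibril collagen of skin, was low at 3.17 ± 0.681 against 2.20 ± 0.899 CPM. The 5 untested genes were Col4a1, Col8a1, Col8a2, Col10a1 and Col15a1.

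The other collagens, a mixed class of fibril-associated, membrane-bound and beaded-filament types, held 21 genes, of which 5 were tested and 0 passed by edgeR, DESeq2 or limma-voom, with 1 at an unadjusted p under 0.05, against 18.3% of all genes. Their median log2 fold change was 0.71, with 3 values above 0 and 2 below, and every tested gene was under 10 CPM in both groups. Col20a1, the most abundant of them per kb, measured 2.46, 3.05 and 1.91 CPM against 2.64, 3.90 and 3.88 CPM, with overlap. Col6a1, a chain of the beaded-filament type VI collagen, measured 0.522, 1.39 and 2.64 CPM against 0.688, 0.707 and 0.426 CPM. Low-NaCl library 1 lay within the high-NaCl range and the other low-NaCl libraries above it. Its log2 fold change was 1.31 ± 0.53 (adjusted p = 0.219), and without low-NaCl library 1 it was 1.70 (adjusted p = 0.0422).

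Col12a1, which codes for a fibril-associated collagen, measured 0.646, 1.34 and 0.684 CPM against 0.550, 0.268 and 0.585 CPM. Its groups did not overlap, and its log2 fold change was 0.95 ± 0.45 (adjusted p = 0.305). Col14a1, of the same family, measured 0.149, 0.114 and 0.424 CPM against 0.495, 0.459 and 0.559 CPM from 7.99% of its bases. It was lower in each low-NaCl library than in any high-NaCl library, at a log2 fold change of -1.12 ± 0.54 (adjusted p = 0.307). Col23a1, a membrane-bound collagen, measured 1.98 ± 1.07 against 1.2 ± 0.559 CPM. Of the 16 untested genes, 4 had no read and the highest mean over the 6 libraries was 0.236 CPM.

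The laminins held 11 genes, of which 7 were tested, 0 passed higher and 1 passed lower, with a median log2 fold change of -0.05. Lama1 codes for the alpha1 chain, the laminin chain of the early embryo and of a few adult basement membranes, among them those of kidney tubules. The gene lies on chromosome 17 (67697259 to 67822647, plus strand), and 75.5% of its exonic bases were countable. Lama1 measured 8.35, 12.6 and 15.2 CPM in the low-NaCl libraries and 23.8, 26.5 and 26.9 CPM in the high-NaCl libraries. The groups were far apart, with the widest spread among the low-NaCl libraries. At a log2 fold change of -1.10 ± 0.21, Lama1 had a 95% interval of -1.57 to -0.62 and an adjusted p of 0.0265 by edgeR, and lane 1 alone gave -1.51. The call was lost under scaling by total counts (adjusted p = 0.103), with lane as a term (0.181), and without low-NaCl library 2 (0.0950), high-NaCl library 1 (0.0554) or high-NaCl library 3 (0.0982).

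Lama5, the alpha chain of most mature epithelial basement membranes, measured 75.6, 81.6 and 73.7 CPM against 58.5, 84.8 and 60.9 CPM. High-NaCl library 2 lay above every low-NaCl library, and the log2 fold change of 0.18 ± 0.16 did not pass (adjusted p = 0.613). Per kb of countable exon, Lama1 stood at 0.0815, 0.114 and 0.152 of Lama5 in low-NaCl libraries 1 to 3 and at 0.301, 0.230 and 0.325 of it in high-NaCl libraries 1 to 3. This ratio was chosen after the values were seen and is given as a description. Lama4, a chain of vessel and muscle basement membranes, was low at 0.310 ± 0.052 against 0.377 ± 0.105 CPM.

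Lamb1, Lamb2 and Lamc1, chains that pair with the alpha chains, did not pass. Lamb1 measured 386, 368 and 366 CPM against 310, 363 and 363 CPM, each low-NaCl library lying above the high-NaCl ones by a small margin. Its log2 fold change was 0.11 ± 0.14, with a 95% interval of -0.20 to 0.42. Lamb2 measured 169, 179 and 195 CPM against 189, 187 and 188 CPM, and Lamc1 measured 86.4, 98.3 and 95.8 CPM against 87.1, 121 and 91.2 CPM, both with overlap.

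Of the laminin genes that were not tested, Lama3 had 53 reads from a countable share of 47.4% and Lamb3 had 13 from 21.1%. Lama2 had 6 reads from 10.8% and Lamc3 had 1 from 0.553%.

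Of the other 6 matrix genes, 3 were tested and 0 passed by edgeR, DESeq2 or limma-voom, with 1 at an unadjusted p under 0.05. Nid1 codes for nidogen-1, the linker between the laminin and type IV collagen networks. It measured 1.07, 10.2 and 10.8 CPM in low-NaCl libraries 1 to 3 and 2.48, 2.24 and 2.29 CPM in the high-NaCl libraries. Low-NaCl library 1 was below every high-NaCl library and the other low-NaCl libraries were well above them. Its log2 fold change was 1.65 ± 0.62 with a 95% interval of 0.26 to 3.05 (adjusted p = 0.196). It was 2.16 without low-NaCl library 1 (adjusted p = 0.00160) and -1.21 with lane as a term, where the difference comes from lane 1.

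Hspg2, the perlecan gene, measured 24.7, 38.5 and 43.3 CPM against 35.2, 54.3 and 41.1 CPM, and Agrn, the agrin gene, measured 40.3, 45.3 and 49.0 CPM against 41.4, 54.1 and 49.4 CPM. The groups overlapped in both, with log2 fold changes of -0.30 ± 0.23 and -0.11 ± 0.14. Low-NaCl library 1 was the lowest of the 6 in Nid1, Hspg2 and Agrn alike. Nid2 had 1 read, from 4.29% of its bases.

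The alpha subunits of integrins held 18 genes, of which 5 were tested, 1 passed higher and 0 passed lower, with a median log2 fold change of 0.27. Itga6 codes for the subunit that binds laminin at the basal side of epithelia. It measured 101, 104 and 96.4 CPM on the low-NaCl diet and 66.4, 69.7 and 67.3 CPM on the high-NaCl diet, with tight groups that were far from overlapping. The log2 fold change was 0.57 ± 0.12, with a 95% interval of 0.31 to 0.83 and an adjusted p of 0.0332 by edgeR, and lane 1 alone gave 0.60. The call was lost under scaling by total counts (adjusted p = 0.0778), with lane as a term (0.333), and on leaving out any single library other than high-NaCl library 2 (0.0667 to 0.152).

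Nearly all of the Itga6 signal came from 1 stretch. The gene spans chromosome 2 from 71745616 to 71858416 on the plus strand, and 98.9% of its reads fell to identifier uc008kbg.1 at its 3′ end (71856764 to 71858342). None of the countable bases of Itga6 lay in annotated coding sequence. The full-length identifiers uc008kbc.1 and uc008kbd.1 had no countable base, so the value describes the end of the transcript. The next identifier by reads, uc008kbf.1 (71826723 to 71854951), measured 0.472, 1.57 and 0.660 CPM against 0.0550, 0.344 and 0.293 CPM, also without overlap. With identifiers of identical introns only, which leaves out the 3′ stretch, the log2 fold change of Itga6 was 1.85 and did not pass (adjusted p = 0.151).

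Itgav, the RGD-binding subunit, lies on the same chromosome (83724397 to 83806916, plus strand) and was the gene of the set closest outside the threshold. It measured 239, 249 and 247 CPM against 192, 162 and 194 CPM, without overlap. The log2 fold change was 0.42 ± 0.13 (adjusted p = 0.125), and DESeq2 placed it just inside the threshold (adjusted p = 0.0499975). Gm13684 overlaps Itgav. Itga1, the collagen receptor subunit, measured 40.4, 42.8 and 44.6 CPM against 31.3, 36.1 and 38.4 CPM, also without overlap, at 0.27 ± 0.13 (adjusted p = 0.312).

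Itga4, a subunit known from leukocytes, measured 3.76 ± 0.814 against 3.38 ± 0.818 CPM. Cerkl overlaps 10.9% of its countable bases, where reads of Itga4 and Cerkl cannot be separated. Itga9 measured 0.579 ± 0.559 against 0.487 ± 0.317 CPM. The 13 untested alpha subunits included Itga8 and Itga3 above, and 4 of the 13 had no read. The leukocyte subunits gave 4 reads for Itgae (16.1% countable), 6 for Itgax (78.8%) and 1 for Itgad (10.2%). Itgal (2.21%) had no read, and Itgam (0%) could not give any.

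The beta subunits held 10 genes, of which 5 were tested and 0 passed by edgeR, DESeq2 or limma-voom, with 0 at an unadjusted p under 0.05. The median log2 fold change was 0.13, and all 5 were under 10 CPM in both groups. Itgb1, the partner of most alpha subunits named above, measured 5.34, 6.17 and 7.36 CPM against 4.26, 2.92 and 7.40 CPM. The highest and the lowest values were both high-NaCl libraries, and the log2 fold change was 0.38 ± 0.31 with a 95% interval of -0.32 to 1.08. Itgb4, the beta subunit of hemidesmosomes, measured 0.472, 0.341 and 0.637 CPM against 0.358, 0.497 and 0.186 CPM from 24.3% of its bases.

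Itgb6, an epithelial partner of alphav, measured 0.404 ± 0.086 against 0.372 ± 0.187 CPM. The integrin-like Itgb2l measured 1.51 ± 0.731 against 1.41 ± 0.533 CPM and Itgb7, a lymphocyte subunit, 0.25 ± 0.188 against 0.380 ± 0.25 CPM. The further partners of alphav were not tested, with 24 reads for Itgb8, 14 for Itgb3 and 4 for Itgb5, at countable shares of 46.1%, 16.6% and 0.884%. Itgb2 and Itgbl1 had no read, at countable shares of 3.18% and 12.1%.

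**Figure D4:**
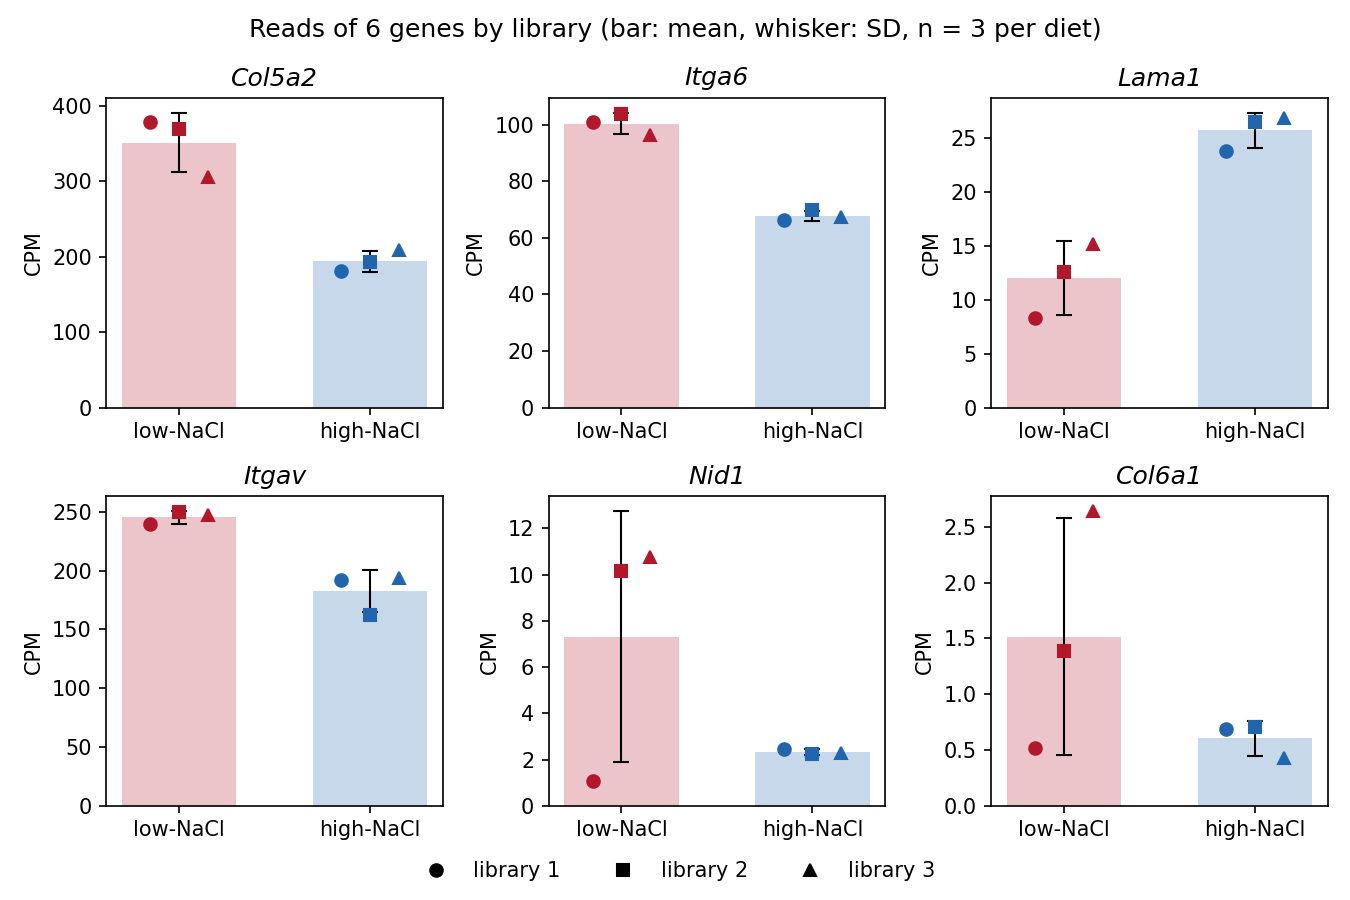
CPM in each library for Col5a2, Itga6, Lama1, Itgav, Nid1 and Col6a1, with the mean as a bar and the SD as a whisker (n = 3 per diet); symbols give the library number. In Col5a2, Itga6, Lama1 and Itgav the diets do not overlap, and in Nid1 low-NaCl library 1 lies apart from the other low-NaCl libraries. In Col6a1 the low-NaCl libraries are spread out, with library 1 within the high-NaCl range.

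Genes that make, cut or connect to the matrix were read from 6 lists. Of 18 tested genes of collagen folding, modification and cross-linking, 0 passed, with a median log2 fold change of 0.18. Of 19 tested matrix proteases and inhibitors, 1 passed higher and 0 lower, with a median of 0.35. Of 16 other matrix receptors and hemidesmosome genes 0 passed (median -0.02), of 21 other matrix glycoproteins and proteoglycans 0 passed (median -0.11), of 31 genes of the integrin adhesion complex 0 passed (median 0.01), and of 9 genes of the TGF-beta pathway 0 passed (median 0.01). At an unadjusted p under 0.05, which 18.3% of all genes tested had, edgeR had 2 genes of folding and cross-linking, 8 proteases and inhibitors, 5 receptor genes, 8 glycoproteins and proteoglycans, 2 adhesion genes and 2 TGF-beta genes. DESeq2 called Tgm2, Adamts1, Htra1, Gpc4 and Vcl higher and Gpc3, Egfl6, Fbln7 and Fras1 lower, and limma-voom called 1 protease gene higher and 0 genes of the other lists.

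The protease that passed was Adamts1, which codes for a secreted enzyme that cuts proteoglycans of the matrix. It measured 14.8, 38.5 and 33.2 CPM on the low-NaCl diet and 8.80, 9.71 and 9.44 CPM on the high-NaCl diet. Every low-NaCl library was higher, library 1 by the least. The log2 fold change was 1.63 ± 0.30 (adjusted p = 0.0231 by edgeR), and lane 1 alone gave 0.75. The call was lost under scaling by total counts (adjusted p = 0.0531), with lane as a term (0.339) and on leaving out any library other than low-NaCl library 1 (0.0622 to 0.101). Mmp14, the membrane-bound collagenase, measured 8.80, 14.5 and 13.8 CPM against 18.4, 19.4 and 18.5 CPM without overlap, at a log2 fold change of -0.60 ± 0.20 (adjusted p = 0.138). Htra1, a secreted serine protease, measured 4.05 ± 1.71 against 2.02 ± 0.462 CPM, also without overlap.

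Among collagen-modifying genes, Tgm2, which cross-links matrix proteins, measured 9.52, 24.5 and 35.6 CPM against 10.7, 9.75 and 11.3 CPM. Loxl1, a lysyl oxidase of elastic fibres, measured 3.16, 21.2 and 27.1 CPM against 8.86, 6.73 and 6.25 CPM. In both, low-NaCl library 1 was lowest of the 6 and the other low-NaCl libraries were highest, and neither passed (adjusted p = 0.140 and 0.290). Without low-NaCl library 1 both did (0.00445 and 0.00393). Pcolce, an enhancer of procollagen processing, was abundant at 1317 ± 172 against 958.9 ± 218 CPM and did not pass, nor did Mia3, which loads procollagen for export, at 23.7 ± 4.56 against 17.8 ± 2.85 CPM.

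The remaining lists held several genes just outside the threshold. Gpc3, a membrane-anchored proteoglycan, measured 34.2, 35.7 and 35.5 CPM against 49.9, 70.7 and 46.4 CPM at -0.67 ± 0.17 (adjusted p = 0.0658), and Gpc4, of the same family, measured 99.8, 125 and 108 CPM against 81.7, 82.1 and 79.1 CPM at 0.45 ± 0.13 (0.0968). Both were free of overlap, in opposite directions. Vcl, the gene of the adhesion protein vinculin, measured 102, 130 and 112 CPM against 69.5, 91.9 and 75.0 CPM at 0.54 ± 0.15 (0.0929). Genes of 3 further matrix proteins were lower in every low-NaCl library than in any high-NaCl library, and none of them passed. Egfl6, which codes for an integrin alpha8 ligand, had a log2 fold change of -0.63 ± 0.18 (0.0981), Fbln7 had -0.69 ± 0.20 (0.0999), and Fras1, a gene of the embryonic basement membrane, had -0.74 ± 0.22 (0.109). Among TGF-beta genes, Tgfb1 measured 9.88 ± 0.910 against 6.57 ± 2.01 CPM and did not pass (adjusted p = 0.204). Its signal transducer Smad3 had 135 ± 16.1 against 114 ± 3.37 CPM, the coreceptor Tgfbr3 53.3 ± 2.32 against 66.8 ± 10.1 CPM, and the inhibitor Smad7 18.2 ± 3.72 against 21.8 ± 3.06 CPM, none of them called. Cd9, a tetraspanin that associates with integrins, measured 1114 ± 96.9 against 789.7 ± 183 CPM, and Plec, the hemidesmosome linker plectin, 0.580 ± 0.168 against 0.243 ± 0.096 CPM, both without overlap and not called. The laminin-related Ntn4 measured 106 ± 4.45 against 142 ± 23.0 CPM. Of the adhesion genes, Fermt2, an integrin activator, had 134 ± 15.4 against 157 ± 13.2 CPM, Csrp1 259 ± 27.4 against 200.4 ± 43.1 CPM and Tns4 0.979 ± 0.214 against 0.484 ± 0.134 CPM, none of them called.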

How the data were processed

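RNA of collecting duct cells was measured in 6 libraries, 3 per diet. The authors deposited raw counts per transcript identifier, made with featureCounts 1.5.0-p3 on exons of UCSC transcripts (mm10) and without strand or overlap options, per the file headers. The sources used here do not give the aligner. The 59121 identifiers were assigned to GENCODE genes by identical introns or at least 50% exonic overlap on the same strand and summed. Identifiers without a match (5.57% of counts) were kept for library sizes alone. Genes were filtered with filterByExpr and tested with edgeR 4.0.16 (TMM, robust quasi-likelihood, diet alone), with Benjamini-Hochberg adjustment over 10567 genes. Standard errors were derived from the log2 fold change and the F statistic. Errors of CPM are SD over 3 libraries. The procedure was tested on simulated counts. Between replicates, chi-square divided by its degrees of freedom was 34.5 to 221, and none was counted as a duplicate.

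Genes named were those that passed, up to 6 per class by level per kb, up to 6 nearest outside the threshold, chosen integrin partners, and up to 4 per list by smallest p. Further genes were named after their values were seen. One tested gene of the set, kept in the counts and medians, is not reported by name here. Members and lists were chosen with earlier results of these data known. Alternatives were other scalings, filters, tests, lane, replicate number, identifier choices and leaving out each library.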

Additional observations from a re-analysis of the deposited data

How the results depend on the processing

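The number of genes of the set passing higher was 2 in the reported fit, 1 under scaling by total counts, with identical introns only and with genes at least 50% countable, and 0 with lane as a term. The fit with genes at least 50% countable left out Itga6, whose countable share was 48.2%, so Itga6 was not tested there. The number passing lower was 1, and 0 under scaling by total counts and with lane as a term. Leaving out each library gave 0 to 4 higher and 0 to 1 lower. Over all genes, DESeq2 called 411 higher and 448 lower against 182 and 184, scaling by total counts 81 and 55, lane as a term 1 and 2, and leaving out a library 34 to 292 higher and 36 to 255 lower. Scaling by total counts moved the median log2 fold change of all genes to 0.09.

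With lane as a term, which takes the diet difference from lane 1, these log2 fold changes turned sign: Col18a1 -0.33, Col1a2 -0.65, Col23a1 -0.51, Col4a2 -0.31, Col4a6 -0.19, Col5a1 -2.10, Col6a1 -0.40, Itga9 -0.40, Itgb2l -0.15, Itgb6 -0.29, Nid1 -1.21, Loxl1 -1.49 and Tgm2 -0.17. So did Col4a4 (0.021), Col4a5 (0.044) and Lamb2 (0.038) under scaling by total counts, Itga9 with limma-voom (-0.036), and Itgb6 with only the identifier with the most counts (-0.10), an alternative chosen after seeing the data. Leaving out a library gave log2 fold changes of -0.016 to 0.59 for Col18a1, -0.13 to 0.47 for Col1a2, -0.10 to 0.18 for Col4a2, -0.24 to 0.11 for Col4a5, -0.025 to 0.34 for Itga4, -0.85 to 0.76 for Itga9, -0.29 to 0.42 for Itgb2l, -0.14 to 0.56 for Itgb6, -1.27 to 0.030 for Itgb7 and -0.19 to 0.068 for Lamc1. None of these genes had passed, and the cause was not tested.

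The replicate numbers are shared by the diets, but libraries of the same number did not deviate together in every pair (correlations of 0.19, 0.27 and -0.07). With the replicate number as a block, 466 genes passed higher and 447 lower, and Itgav joined Col5a2 and Itga6 (adjusted p = 0.0377). Of the named list genes, Adamts1, Cd9, Gpc4, Htra1, Pcolce and Vcl passed higher and Egfl6, Fbln7, Gpc3, Mmp14 and Ntn4 lower.

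Depth limits the 23 tested genes under 10 CPM, whose intervals are wide. A small countable share limits other genes and also 8 of these 23, in which it was under 50%.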

Other observations

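Most reads of Col18a1 fell to 2 identifiers. The identifier uc007fvh.2, which spans most of the gene (chromosome 10, 77052179 to 77166530), held 82.8% of its reads and measured 7.98, 10.6 and 16.8 CPM in low-NaCl libraries 1 to 3 and 8.80, 9.21 and 7.85 CPM in the high-NaCl libraries. The shorter uc011xhb.1 (77095991 to 77113678) held 17.0% of reads and measured 0.547, 2.12 and 3.21 CPM against 1.90, 2.24 and 2.53 CPM. Both were lowest in low-NaCl library 1 among the low-NaCl libraries.

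Several genes outside the set were also low in low-NaCl library 1. Adamts5, a matrix protease gene, measured 1.19, 6.33 and 10.8 CPM in low-NaCl libraries 1 to 3 and 1.68, 2.70 and 2.23 CPM in the high-NaCl libraries. Adamts15, of the same family, measured 0.820, 3.55 and 7.38 CPM against 0.770, 1.95 and 1.06 CPM. Lrp2, the proximal tubule receptor megalin, measured 2.58, 16.2 and 28.7 CPM against 11.4, 16.8 and 11 CPM. These genes were picked after their values were seen.

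Itgb3bp, left out of the set, measured 1.32, 1.05 and 0.873 CPM against 2.39, 2.05 and 2.29 CPM from 7.41% of its bases, at a log2 fold change of -1.05 ± 0.26 (adjusted p = 0.0596 by edgeR).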
